A study of Rattus norvegicus with 98 samples.

Results

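Peak lists of H3K27ac, the acetylated form of lysine 27 on histone H3, were compared between the cingulate cortex (CGC) and the insular cortex (InsularCortex) of the rat. The members were all 4 CGC libraries and all 4 InsularCortex libraries, 8 of the 94 libraries with a peak list. They came from 2-month-old male Long-Evans rats that received fluoxetine at 18 mg per kg body weight in the drinking water for 6 weeks (FT) or water alone (Sham), with 2 replicates per region and treatment. No transgene, deletion or further treatment is named for either group. Each replicate was a pool of micropunches from several animals, and the regions of one replicate were punched from the same pool, so that a CGC and an InsularCortex library of the same treatment and replicate form a pair.

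H3K27ac is deposited by the acetyltransferases p300 and CBP and marks promoters and enhancers that are in use. Enhancer acetylation differs more between cell types and brain areas than promoter acetylation, and for this reason the mark is used to tell tissues apart. The cingulate cortex lies on the medial wall of the hemisphere next to the prelimbic and infralimbic areas, and takes part in the control of action and in the affective side of pain. The insular cortex lies on the lateral wall, receives taste and visceral input, and is strongly connected with the amygdala. Both are layered cortices with the same broad classes of glutamatergic, GABAergic and glial cells. In pooled punches, a lower share of one cell type and less acetylation per cell cannot be told apart.

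All loci are given on the Rn5 rat assembly, counted from 1, and without gene names, because an annotation of that assembly was not used here. For the same reason the labelled tissues were not checked against marker genes, and no sequence is shown. The 4 CGC and 4 InsularCortex lists were compared by the 1 kb windows that they occupy (at least 50% of the window covered by peaks), by the width of their peaks and by the within-list rank of the peaks on maxScore, the highest filter score inside a peak. For these comparisons each list was cut to its 40597 best-scoring peaks, the length of the shortest of the 8, and these are called equal-size lists.

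The lists themselves differed before any locus was compared. The Sham CGC lists held 40597 and 42094 peaks, the FT CGC lists 51027 and 49403, the Sham InsularCortex lists 50041 and 53135, and the FT InsularCortex lists 48578 and 53706. Both Sham CGC lists were shorter than each of the other 6. Mean peak number was 45780 ± 5200 in CGC and 51365 ± 2459 in InsularCortex (SD, n = 4), a log2 ratio of -0.17 that did not pass the exact permutation test over the 8 libraries (two-sided p = 0.143, with 0.0286 the smallest p that 4 against 4 allows). The ratio was -0.32 within Sham, where the regions did not overlap, and -0.03 within FT, where they did.

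Covered length followed the same order. Peaks covered 59.5 and 64.7 Mb in Sham CGC, 83.6 and 77.1 Mb in FT CGC, 78.2 and 84.5 Mb in Sham InsularCortex, and 77.1 and 85.3 Mb in FT InsularCortex. The log2 ratio of CGC to InsularCortex was -0.19 (exact permutation test, two-sided p = 0.143), with -0.39 within Sham and -0.01 within FT. Sequencing depth is not part of the lists, and its part in the short Sham CGC lists was not tested.

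**Figure D1:**
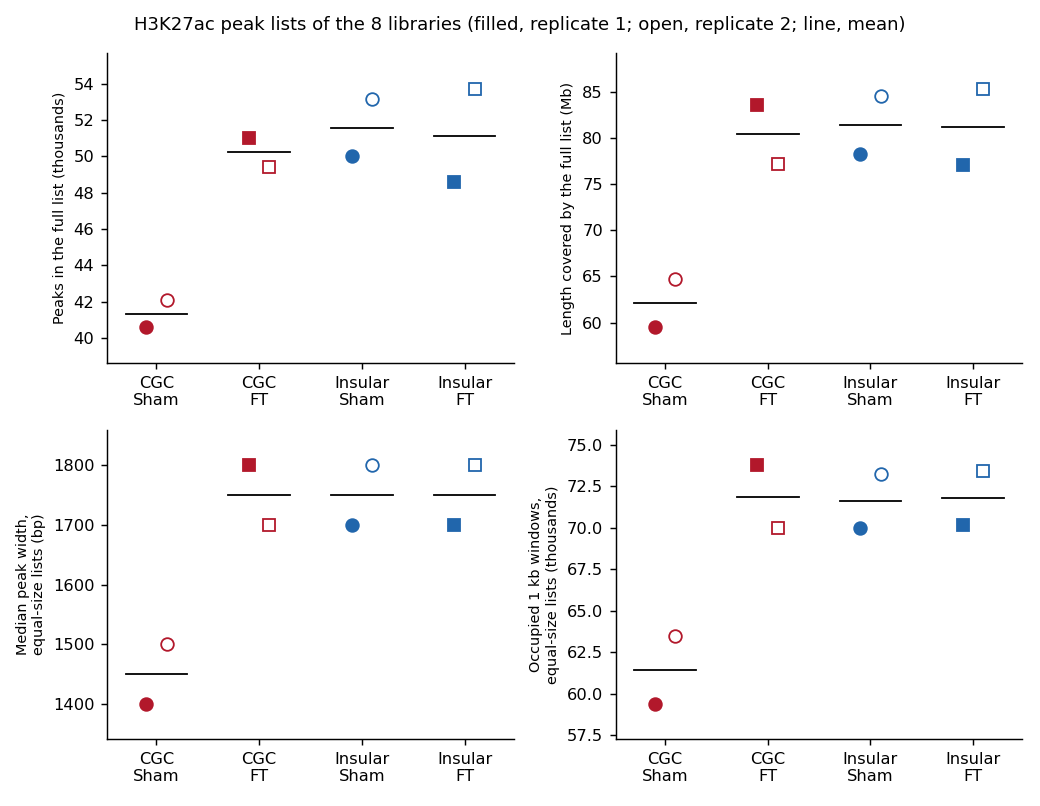
The 4 panels show, for each of the 8 libraries, the number of peaks, the covered length in Mb, and on equal-size lists the median peak width in bp and the number of occupied 1 kb windows. Circles are Sham and squares FT, filled symbols replicate 1 and open symbols replicate 2, and lines are means of 2. Both Sham CGC libraries lie below the other 6 in every panel. The FT CGC libraries lie within the InsularCortex range or at its edges, and in the last panel 1 of them is just above it (73756) and 1 just below (69980).

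Peak width showed no difference between the regions that held in both treatments. On equal-size lists the median width was 1400 and 1500 bp in Sham CGC, 1800 and 1700 bp in FT CGC, 1700 and 1800 bp in Sham InsularCortex, and 1700 and 1800 bp in FT InsularCortex. The 2 Sham CGC lists were again the narrowest, and FT CGC had the same median widths as InsularCortex. The regions differed by 150 bp on average (1600 ± 183 bp in CGC and 1750 ± 57.7 bp in InsularCortex, SD, n = 4; exact permutation test, two-sided p = 0.343). Broad peaks of at least 5 kb were rare, with 2 and 5 in Sham CGC, 16 and 5 in FT CGC, 7 and 8 in Sham InsularCortex, and 9 and 10 in FT InsularCortex. They overlapped between the regions (exact permutation test, two-sided p = 0.714). The number of occupied windows on equal-size lists was 59402 and 63504 in Sham CGC, 73756 and 69980 in FT CGC, 69981 and 73227 in Sham InsularCortex, and 70163 and 73405 in FT InsularCortex (log2 ratio of the region means -0.11; exact permutation test, two-sided p = 0.286). Without FT CGC replicate 1 this ratio was -0.16 and passed the test (exact permutation p = 0.0286).

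By the windows they occupied, the InsularCortex libraries grouped together, and the CGC libraries were no closer to each other than to InsularCortex on average. The Jaccard index, the windows that both libraries occupy divided by the windows that either occupies, averaged 0.750 ± 0.0169 (SD) over the 6 pairs within InsularCortex. Within CGC the 6 pairs averaged 0.673 ± 0.0377, and the 16 pairs across the regions 0.674 ± 0.0395. Pairs within a region exceeded cross-region pairs by 0.0373 on average, the highest value of the 35 ways to divide the 8 libraries into 4 and 4 (exact permutation test, one-sided p = 0.0286, the smallest possible). When the cross-region pairs were limited to those of the same pool the excess was 0.0318, and the paired exact test gave p = 0.125, the smallest that 4 pairs allow. Without any 1 of the 4 InsularCortex libraries the exact one-sided p was 0.0857.

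Over both treatments the excess came from the InsularCortex pairs, since the CGC mean (0.673) did not exceed the cross-region mean (0.674). The Sham CGC pair shared 0.642 of its windows and the FT CGC pair 0.747, whereas the InsularCortex pairs shared 0.737 (Sham) and 0.762 (FT). Each FT CGC library shared between 0.686 and 0.725 of its windows with the InsularCortex libraries, more than it shared with either Sham CGC library (0.650 to 0.674). The mean index between the regions was 0.636 within Sham and 0.715 within FT. Within-region pairs exceeded cross-region pairs in both treatments, by 0.0535 in Sham and 0.0389 in FT.

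**Figure D2:**
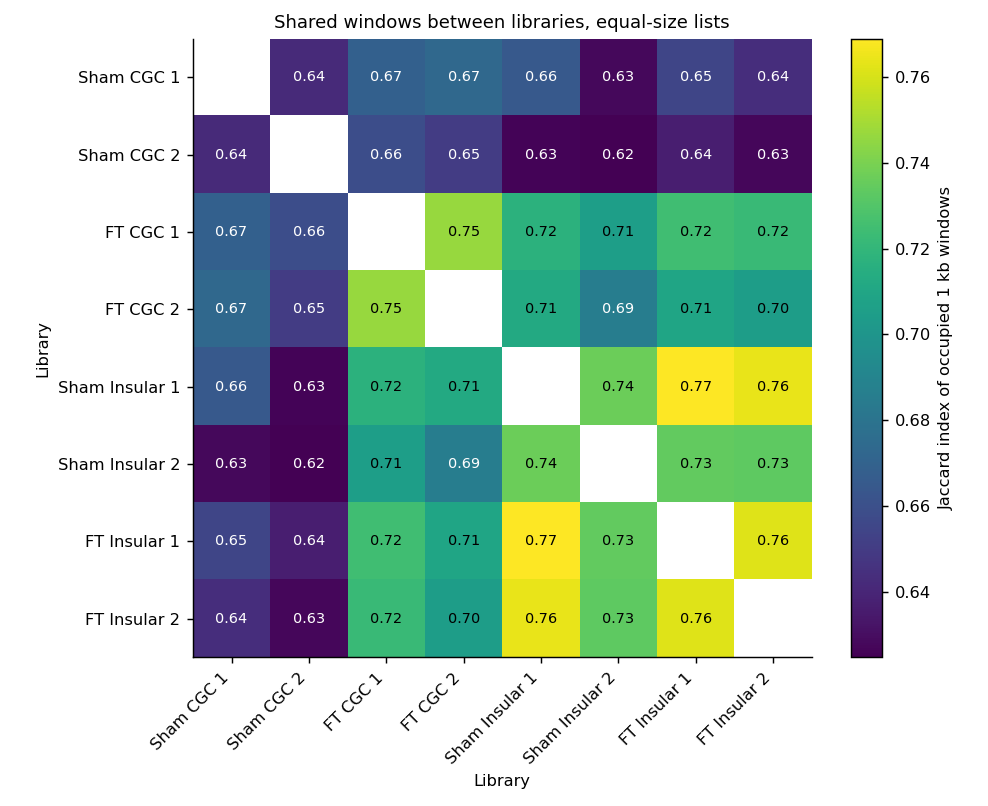
Rows and columns are the 8 libraries, and each cell gives the Jaccard index of the 1 kb windows that the 2 libraries occupy on equal-size lists. The 4 InsularCortex libraries form a block between 0.73 and 0.77, and the 2 Sham CGC rows are the lowest, between 0.62 and 0.67.

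When the lists of all 21 regions with 4 libraries were cut to a common 19378 peaks, each of the 8 libraries had its nearest neighbour among the 84 in its own region. FT CGC replicates 1 and 2 were nearest to each other at a Jaccard index of 0.783, and FT InsularCortex replicates 1 and 2 at 0.789. Sham CGC replicate 1 was nearest to FT CGC replicate 2 (0.729), and Sham CGC replicate 2 to FT CGC replicate 1 (0.707). For every one of the 8, the nearest library outside its own region was from the other cortex, at 0.670 to 0.750. Over the 210 pairs of regions the mean index of CGC with InsularCortex was 0.708, the fourth highest, beside a median of 0.513 over all pairs. Next for CGC came the ventral dentate gyrus (venDG, 0.606) and the centromedial amygdala (CMA, 0.600), and next for InsularCortex came CMA (0.597) and venDG (0.587). The prelimbic (PLC) and infralimbic (ILC) cortex beside CGC had lower indices with it (0.567 and 0.574). Fewer windows, however, separated all 4 libraries of CGC from those of PLC (433) and ILC (597) than from InsularCortex (728) or venDG (3097). One Sham list each of PLC and ILC was short (19629 and 19378 peaks), and its part was not tested.

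Windows that separated the regions completely were few, and most of them were held by InsularCortex. Of 106158 windows occupied in at least 1 of the 8 equal-size lists, 41151 (38.8%) were occupied in all 8. A total of 246 windows (0.232%) were occupied in 4 of 4 CGC and 0 of 4 InsularCortex libraries, and 996 (0.938%) in 4 of 4 InsularCortex and 0 of 4 CGC libraries. No test was applied to these counts, because a single window cannot pass an adjustment over all windows with 4 libraries against 4. On full lists the imbalance was larger, with 119 CGC windows (0.0995% of 119655) and 1363 InsularCortex windows (1.14%).

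The size of the imbalance was not the same in the 2 treatments. Within Sham, 1585 windows (1.68% of 94143) were occupied in both CGC and neither InsularCortex library, and 7085 (7.53%) in both InsularCortex and neither CGC library. Within FT the corresponding numbers were 3213 (3.42% of 93966) and 3389 (3.61%), nearly even. InsularCortex thus held 81.7% of the separating windows in Sham and 51.3% in FT, and this difference between the treatments was not tested. Without the 2 Sham CGC libraries, 1673 windows were occupied in both FT CGC and none of the 4 InsularCortex libraries. The other way it was 1530. For a CGC window the rule then asks for 2 occupied and 4 empty libraries, and for an InsularCortex window for 4 occupied and 2 empty. The 2 counts therefore cannot show whether the excess of InsularCortex windows was present among the remaining 6 libraries. Cutting the lists to the same covered length (59.5 Mb) instead of the same number of peaks gave 401 CGC and 660 InsularCortex windows. Leaving out 1 library loosens the rule and raised the counts, to between 329 (without FT InsularCortex replicate 1) and 596 (without Sham CGC replicate 1) CGC windows and to between 1163 (without Sham CGC replicate 1) and 1779 (without FT CGC replicate 1) InsularCortex windows.

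**Figure D3:**
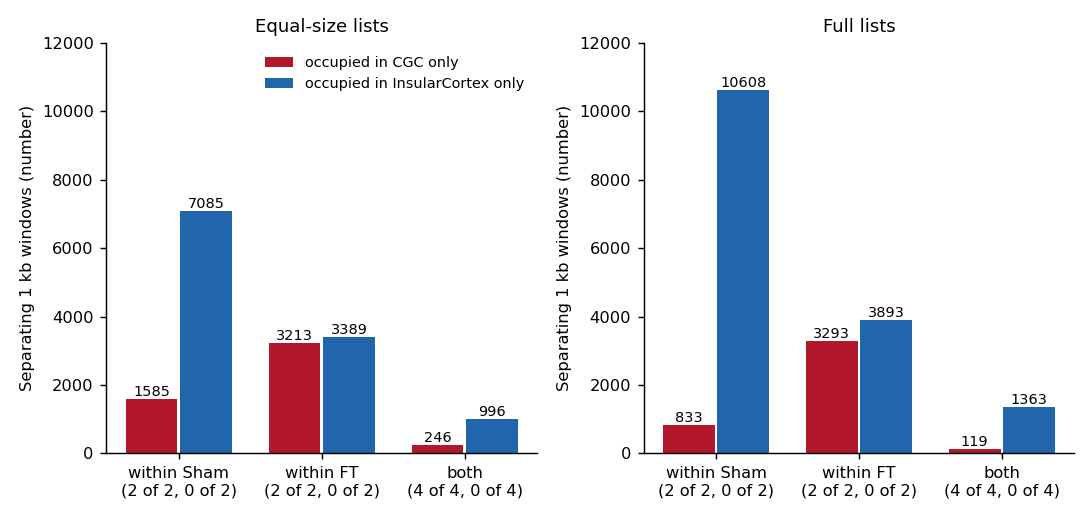
Bars give the number of 1 kb windows occupied in every library of one region and in none of the other, within Sham, within FT and over both treatments, on equal-size lists (left) and full lists (right). The InsularCortex bar exceeds the CGC bar several-fold within Sham (7085 and 1585 on equal-size lists), and the bars are nearly equal within FT (3389 and 3213).

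Windows that separated the regions in one treatment mostly did not separate them in the other. Of the 1585 CGC windows of Sham, 246 (15.5%) separated in the same direction in FT and 30 in the opposite one. These 246 were 7.66% of the 3213 CGC windows of FT. For InsularCortex the 996 shared windows were 14.1% of the Sham windows and 29.4% of the FT windows, and 135 of the Sham windows were reversed in FT. By the weaker measure of more occupied libraries in one region than in the other, 44.3% of the CGC windows of Sham kept their direction in FT and 11.4% turned. For the InsularCortex windows of Sham these shares were 42.9% and 12.7%. Of the windows of FT, 34.2% of the CGC ones kept their direction in Sham and 22.8% turned, and 65.8% of the InsularCortex ones kept it and 7.23% turned. On full lists more of the CGC windows of FT turned in Sham (29.9%) than kept their direction (22.9%). Of the 7085 InsularCortex windows of Sham, 2606 were occupied in both FT CGC libraries. Of the 1585 CGC windows of Sham, 275 were occupied in both FT InsularCortex libraries.

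Separating windows were scattered and of modest rank. Joining windows no more than 2 kb apart gave 238 CGC loci, 230 of them a single window, and 900 InsularCortex loci, 804 of them a single window, and no locus held more than 2. Per chromosome the InsularCortex windows made up between 0.371% (chromosome X) and 1.38% (chromosome 13) of the occupied windows, and the CGC windows between 0.110% (chromosome 20) and 0.448% (chromosome 19). A window occupied in all 8 was touched by 20 CGC windows (8.13%) and 146 InsularCortex windows (14.7%). More touched a window occupied in the other region, 53 CGC windows (21.5%) and 373 InsularCortex windows (37.4%). Counted by peak centres, 233 windows separated for CGC and 509 for InsularCortex, a smaller imbalance. The part of peak width in the imbalance was not tested. In 155 CGC windows (63.0%) and 505 InsularCortex windows (50.7%), no library of the other region occupied any window within 5 kb on either side.

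The peaks behind these windows stood below the middle of their lists. The median rank percentile (100 for the best peak of the full list, mean of the 4 occupied libraries) was 33.2 for CGC windows and 42.7 for InsularCortex windows, beside 76.8 for windows occupied in all 8. The cut sets a floor under these percentiles that rises with list length. The lowest mean was 15.9 for CGC and 23.6 for InsularCortex windows, so the 2 medians are not directly comparable. The best peak ranked in the upper 50% of all 4 lists in 18 CGC windows (7.32%) and 193 InsularCortex windows (19.4%). Because the lists were cut by rank, a low-ranked peak of the other region can lie just past the cut. On full lists 82 of the 246 CGC windows (33.3%) and 681 of the 996 InsularCortex windows (68.4%) stayed empty in all 4 libraries of the other region, and 19 of the CGC windows were then occupied in all 4 InsularCortex libraries. The cut kept 100% and 96.4% of the Sham CGC lists, 79.6% and 82.2% of the FT CGC lists, and 75.6% to 83.6% of the InsularCortex lists. Few Sham CGC peaks thus lay past the cut, and the shares of the 2 directions cannot be compared.

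The CGC loci with 2 separating windows, 8 in all, were mostly matters of degree. The best-ranked was at chr19:36874001-36876000, where peaks covered 1600, 1600, 1500 and 1500 bp in Sham CGC replicates 1 and 2 and FT CGC replicates 1 and 2. In InsularCortex a peak covered 400 bp in Sham replicate 1 and none was listed in the other 3. The best peak there held rank 7337, 14242, 15238 and 7660 in the CGC lists. At chr1:66387001-66389000 the CGC libraries had 1500, 1500, 1400 and 1700 bp, and in InsularCortex only FT replicate 1 had a peak (800 bp). These 2 loci separated the regions most clearly, with 3 of 4 InsularCortex libraries free of any peak.

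At the remaining CGC loci low-ranked InsularCortex peaks were common. The locus chr9:61462001-61464000 had 1500, 1500, 1800 and 1400 bp in CGC and 1400, 1200, 1100 and 1400 bp in InsularCortex on full lists, where its InsularCortex peaks held ranks 41614 to 47736, past the cut. The loci chr6:51843001-51845000, chr7:126503001-126505000 and chr13:43703001-43705000 each had peaks of 800 to 1600 bp in 3 of 4 InsularCortex libraries. At chr9:81022001-81024000 and chr19:39169001-39171000, 2 of 4 InsularCortex libraries had a peak.

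The best-ranked InsularCortex loci were more often empty in CGC, whose 2 Sham lists held few or no peaks past the cut. At chr8:33041001-33043000 peaks covered 1628, 1725, 1933 and 1901 bp in Sham InsularCortex replicates 1 and 2 and FT InsularCortex replicates 1 and 2, and no CGC library listed a peak. The peaks held rank 17726, 17247, 19885 and 19678, and none of the 86 libraries of other regions occupied the locus. The same was seen at chr7:121669001-121671000, with 1700, 1800, 1800 and 1800 bp in InsularCortex, no peak in CGC and no other library that occupied it. On lists cut to 40597 peaks, both loci were thus occupied in the 4 InsularCortex libraries and in none of the other 90.

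Both chr3:12166001-12168000 (1900, 1800, 1700 and 1699 bp) and chr11:2144001-2146000 (1600, 1800, 1600 and 1700 bp) were also free of CGC peaks on full lists. They were occupied in 7 and 24 of the 86 other libraries. At chr11:3690001-3692000, chr11:77436001-77438000 and chr7:71200001-71202000, FT CGC replicate 1 had a low-ranked peak (900, 1200 and 1600 bp) and the other 3 CGC libraries had none. The locus chr7:121861001-121863000 had peaks of 1195 and 900 bp in the 2 FT CGC libraries and none in Sham CGC. The 8 named InsularCortex loci were therefore empty in both Sham CGC libraries, and 4 of the 8 also in both FT CGC libraries.

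Clusters of separating windows were small. In the 1 Mb bin chr7:126000001-127000000, 4 windows were occupied in CGC only, of 112 that were occupied in any of the 8. The bins chr2:277000001-278000000 and chr7:75000001-76000000 held 3 CGC windows each, and each also held 2 InsularCortex windows. For InsularCortex the bins chr4:231000001-232000000 and chr11:77000001-78000000 held 6 windows each, of 60 and 55 occupied windows, and no CGC window. These bins were chosen for their separating windows, which enter the totals of occupied windows, so the totals are no separate result. In the bin on chromosome 4, the CGC libraries occupied 23 to 30 windows and the InsularCortex libraries 38 to 43. The bin chr11:77000001-78000000 had 27 to 28 occupied windows in CGC and 39 to 44 in InsularCortex. The third bin, chr4:55000001-56000000, held 5 InsularCortex windows, with 38 to 52 occupied windows in CGC and 58 to 65 in InsularCortex.

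The other 86 libraries, which did not enter the choice of windows, occupied the 2 sets to different degrees. They come from 23 regions of the same pools of animals and were cut to the same 40597 peaks, except 29 that were shorter and were used whole. The Sham HB (habenula) library stands apart, with 32584 peaks that occupied 0.457% of all windows, beside at least 15.8% in each of the other 85. It is included in the values that follow, and the difference without it, an alternative chosen after seeing the data, is given beside them. CGC windows were occupied in a median of 33.5 of the 86 libraries and InsularCortex windows in a median of 7, beside 78 for windows occupied in all 8 and 39 for all windows occupied in any of the 8. Of the CGC windows 4 (1.63%) were occupied in no other library, and of the InsularCortex windows 124 (12.4%). Over all windows occupied in any of the 8 this number was 4823 (4.54%), and over those occupied in all 8 it was 9 (0.0219%). The share of CGC windows occupied exceeded that of InsularCortex windows in 82 of the 86 libraries, by 28.0 percentage points on average over the 23 regions. Without the Sham HB library the difference was 28.8 points, in 82 of 85 libraries, and the medians of 33.5 and 7 did not move. With all 86 libraries this average was 15.1 points for the windows that separated the regions without the Sham CGC libraries.

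Both sets are read here beside the share of all windows occupied in the same libraries. The mean share of InsularCortex windows was lower than that of all windows in each of the 23 regions, and in each of the 86 libraries. The mean share of CGC windows was above it in 3 of the 23 regions, the lateral septum (LS, 53.4% beside 47.5%), the medial septum (MS, 45.1% beside 43.8%) and the infralimbic cortex (ILC, 46.4% beside 46.0%), and furthest below it in CMA (33.9% beside 54.8%). Raphe (50.7% beside 52.9%) and the ventral tegmental area (VTA, 49.3% beside 50.5%) had the next highest means after LS, and both stood just below their background. In LS the shares of CGC windows were 61.0% and 33.7% in Sham and 60.6% and 58.1% in FT. In ILC, a neighbour of CGC on the medial wall, the shares were 67.9% and 66.7% in the FT libraries, the highest of any library and above the 61.9% of all windows there, but 43.5% and 7.72% in the Sham libraries. The prelimbic cortex (PLC) had 62.2% and 58.1% in FT, beside 65.3% of all windows, and 23.2% and 6.91% in Sham. The Sham libraries of ILC and PLC had 33606 and 19378 peaks and 30577 and 19629 peaks, shorter than the cut, and the part of list length in their low shares was not tested. LS, ILC and PLC overlapped in range and cannot be ordered.

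InsularCortex windows were occupied most often in CMA, PLC, BLA (the basolateral amygdala) and the dorsal dentate gyrus (dorDG), by the mean over all libraries, and the order differed between Sham and FT libraries. Set against the share of all windows in the same region, the order was another. The shortfall was smallest in HB (-19.7 points), the region labelled NaCshell (-22.4), PLC (-23.0) and CMA (-23.8). The HB mean includes the Sham HB library described above. In the FT HB library alone the shortfall was -39.0 points (16.8% beside 55.8%). It was -30.8 points in BLA and -30.5 in dorDG. The CMA libraries occupied 22.8% and 25.0% of the InsularCortex windows in Sham and 36.8% and 39.3% in FT, a mean of 31.0%. The PLC libraries occupied 4.32% and 1.41% in Sham and 44.6% and 41.6% in FT, and the BLA libraries 17.7% and 8.84% in Sham and 30.6% and 32.4% in FT. The mean was 21.8% in dorDG and 18.2% in venDG. Among Sham libraries the highest means were those of CMA (23.9%), venDG (19.2%) and dorDG (19.1%), and PLC (2.9%) and ILC (3.3%) were among the lowest. Among FT libraries the highest means were those of PLC (43.1%), CMA (38.1%), BLA (31.5%) and ILC (29.3%), and the lowest that of the region labelled Snt (9.9%). In CMA the means of the 2 sets lay closest, 33.9% for CGC windows and 31.0% for InsularCortex windows, and the difference changed direction with the treatment, from 35.2% and 23.9% in Sham to 32.7% and 38.1% in FT.

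**Figure D4:**
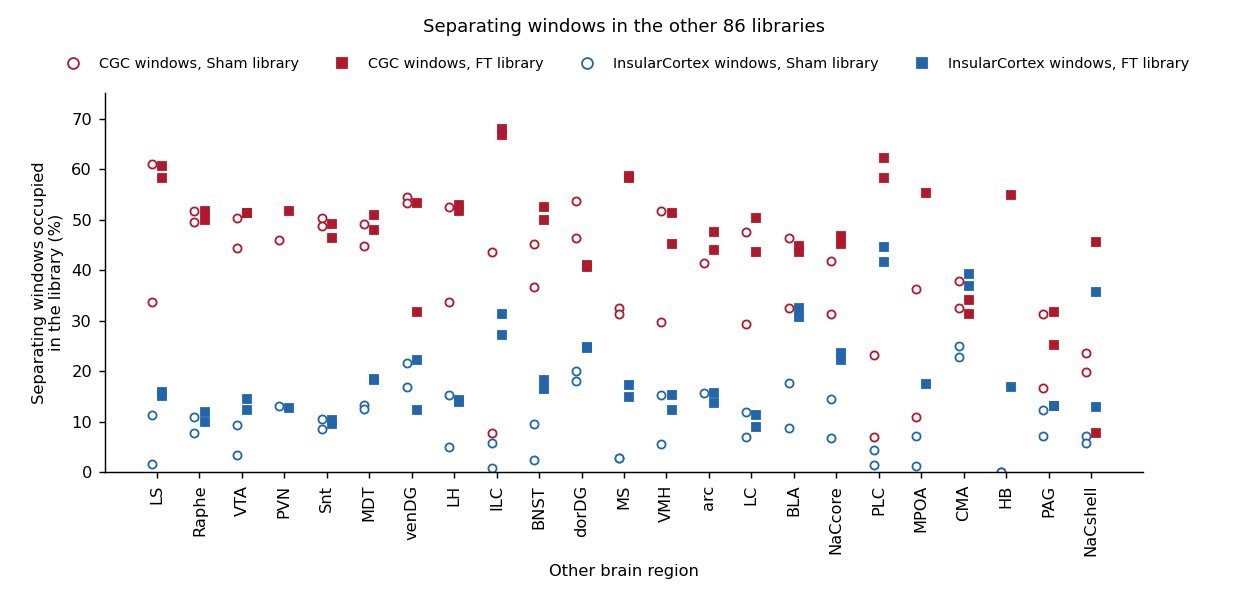
Each symbol is 1 of the 86 libraries of the other 23 regions, with its share of the 246 CGC windows (red) and of the 996 InsularCortex windows (blue) in percent; open circles are Sham, filled squares FT, and regions are ordered by their mean share of CGC windows. Red symbols lie above blue symbols in 82 libraries, and blue symbols are highest in PLC (FT) and CMA.

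The windows that separated the regions within one treatment were most occupied in partly different regions. InsularCortex windows of FT were most occupied in CMA (31.0%), BLA (24.0%) and dorDG (23.7%), and those of Sham in CMA (36.7%), PLC (33.2%) and dorDG (32.5%). CGC windows of FT were most occupied in Snt (47.6%), Raphe (46.5%) and VTA (44.5%), and those of Sham in Snt (47.9%), Raphe (47.6%) and VTA (46.0%). Each of these shares lay below the mean share of all windows in the region (Snt 54.0%, Raphe 52.9%, VTA 50.5%). The InsularCortex shares also lay below it (CMA 54.8%, PLC 45.9%, BLA 53.2%, dorDG 52.4%). LS, first for the windows that separate in both treatments, had 46.0% of the CGC windows of Sham and 41.6% of those of FT, and ILC had 36.9% and 33.5%. The Sham and FT sets share the windows that separate in both, so these orders are not independent of each other.

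Rank was compared over elements, stretches covered by peaks of at least 2 of the 8 libraries. Of 48971 such elements on equal-size lists, 27514 (56.2%) held a peak of each of the 8. For each element the within-list rank percentile of its best peak was converted to a normal score and tested with limma for an effect of region beside treatment. At an adjusted p of 0.05 over all 27514 elements, 18 ranked higher in CGC (0.0654%) and 44 in InsularCortex (0.16%). In 17 of the 18 and all 44 the ranks of the 2 regions did not overlap. The absence of overlap fixes the same direction within Sham and within FT, so that direction is no separate result. The interaction of region and treatment passed the threshold for none of the 27514 (smallest adjusted p = 0.801 in limma, 1433 elements at an unadjusted p under 0.05).

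These calls rested on all 8 libraries taken as independent. With the 4 pools as a block limma called none (smallest adjusted p = 0.106), and leaving out any 1 library left at most 2 CGC and 11 InsularCortex elements. By the plain rule that all 4 libraries of one region rank above all 4 of the other, 1661 elements (6.04%) were higher in CGC and 1892 (6.88%) in InsularCortex. Their median difference was 13.1 percentile points for CGC and -14.3 points for InsularCortex, beside a median of 0.21 points over all 27514. Within Sham 5973 elements were higher in CGC and 5678 in InsularCortex without overlap (21.7% and 20.6%), and within FT 6662 and 6118 (24.2% and 22.2%). Ranks within lists of equal size nearly balance by construction, so the evenness of these numbers is not a result.

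Among the 18 elements with a higher rank in CGC, the largest difference was at chr17:86550702-86553001. Its rank percentile was 69.4, 63.4, 60.0 and 64.8 in Sham CGC replicates 1 and 2 and FT CGC replicates 1 and 2, and 19.6, 13.5, 29.9 and 20.8 in the InsularCortex libraries in the same order. All 4 CGC values lay above the highest InsularCortex value, and the means differed by 49.9 points within Sham and 37.0 within FT (limma difference of normal scores 1.20 ± 0.13 SE, adjusted p = 0.037). The element at chrX:17797336-17800331 stood at 41.6, 55.9, 40.8 and 32.7 in CGC and at 11.0, 12.4, 2.0 and 1.4 in InsularCortex, near the foot of the FT InsularCortex lists. Its peaks covered 1700, 2500, 2700 and 1300 bp in CGC and 1100, 1096, 1400 and 966 bp in InsularCortex. The elements at chr8:50688710-50690565 and chr7:33470502-33472501 differed by 36.8 and 36.7 points.

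Over all called elements the median difference was alike in size, 30.2 points for the 18 and -30.0 points for the 44. Among the InsularCortex ones the largest was at chr12:31083625-31085605. There the percentile was 12.3, 21.7, 13.3 and 7.0 in CGC and 68.6, 69.8, 68.3 and 59.8 in InsularCortex, a difference of 52.2 points within Sham and 53.9 within FT (limma adjusted p = 0.023). Its peaks covered 700 to 1100 bp in CGC and 1800 to 1981 bp in InsularCortex, so the element was also about 2 times as wide there (log2 ratio of the means -1.03). The element at chr10:2923624-2925783 had 9.9, 16.1, 20.7 and 2.9 in CGC and 64.7, 63.4, 55.9 and 55.6 in InsularCortex. At chr10:7293825-7296183 all 8 values were higher, 28.6 to 37.0 in CGC and 72.3 to 80.7 in InsularCortex. The element at chr8:123322229-123325633 ranked at 10.6 to 30.9 in CGC and 61.3 to 66.8 in InsularCortex, and only 8 of the 86 other libraries held a peak in it, 4 of them from PLC and 3 from CMA.

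**Figure D5:**
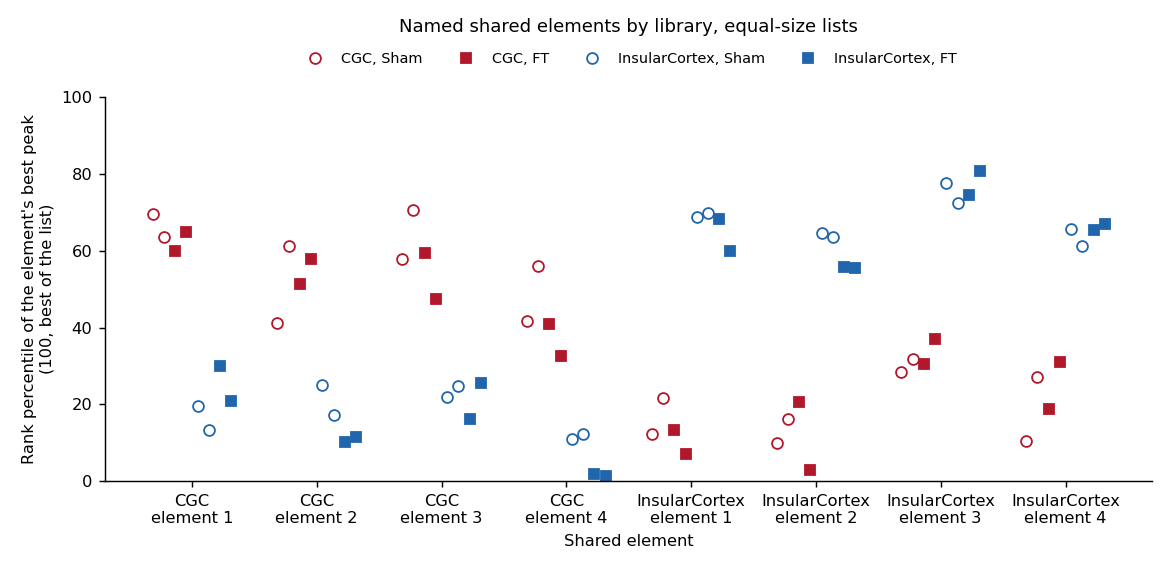
For the 4 elements with the largest rank difference in each direction, symbols give the rank percentile of the best peak (100 for the best of the equal-size list) in each of the 8 libraries, open circles for Sham and filled squares for FT. The CGC (red) and InsularCortex (blue) libraries do not overlap at any of the 8 elements.

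The called elements, which rest on the 8 libraries taken as independent, differed in how many other libraries held a peak in them. Those higher in CGC held a peak in a median of 73.5 of the 86 other libraries (14 to 85), and those higher in InsularCortex in a median of 15.5 (2 to 79). The same count was not made over all 27514 elements. For windows occupied in all 8, a different unit, the median was 78. Most were also wider in the region where they ranked higher, 17 of 18 for CGC and 43 of 44 for InsularCortex, and rank and width come from the same peaks. The 18 had a mean percentile of 52.9 in CGC and 22.5 in InsularCortex, and the 44 of 33.5 and 65.0, while over all 27514 elements the means were 63.8 and 63.6.

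Width within shared elements differed between the regions mainly within Sham. Limma called no element wider in CGC (0.0%, with 368 at an unadjusted p under 0.05) and 1 in InsularCortex (0.00363%, with 3214 at an unadjusted p under 0.05). By the rule of no overlap 125 elements (0.454%) were wider in CGC and 1180 (4.29%) in InsularCortex. Within Sham 571 elements did not overlap towards CGC and 11523 (41.9%) towards InsularCortex, and within FT 5004 (18.2%) and 3126 (11.4%). The predominance of wider InsularCortex elements was thus present in Sham and turned in FT, and the interaction of region and treatment passed the threshold for 4 elements (limma, with 4083 at an unadjusted p under 0.05). The median log2 width ratio over all elements was -0.11 within Sham and 0.01 within FT.

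The single called element, chr19:33928119-33930601, was covered by 1400, 1300, 1300 and 1200 bp of peaks in Sham CGC replicates 1 and 2 and FT CGC replicates 1 and 2. In InsularCortex it was covered by 2395, 2400, 2400 and 2400 bp, without overlap (log2 difference -0.89 ± 0.05 SE, limma adjusted p = 0.008, and 0.184 with the pools as a block). No element was called wider in InsularCortex without Sham CGC replicate 2 or without any 1 of the InsularCortex libraries. Its rank overlapped between the regions, at 19.4 to 52.9 in CGC and 44.2 to 76.1 in InsularCortex. The 2 cortices thus did not overlap in width at this element, and overlapped in rank.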

How the data were processed

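Micropunches of several animals were pooled per replicate, and chromatin was precipitated with an H3K27ac antibody and sequenced. Per the submitters' processing notes reads were aligned with BWA to rn5, and the authors called peaks with DFilter in each library separately. No version of either tool is named. The deposited lists give per peak maxScore and a normalised tag count (scores, the latter rounded to whole numbers), a −log10 p-value (4 to 200) and a false discovery rate in percent (0 throughout). They hold no read counts, so depth is unknown and no counting interval was computed. The 4 input libraries have no list and were not used.

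Peaks were ranked by maxScore, ties by position, and lists cut to 40597 peaks. Starts were read as counting from 0. Single values were tested with exact permutation tests over libraries and elements with limma 3.58.1 in R 4.3.3 (region and treatment as terms, Benjamini-Hochberg adjustment over all elements, threshold 0.05). The permutation tests over the 8 libraries took Sham and FT together, so their spread also holds the difference between the treatments. Without the block, limma took libraries of the same pool as independent. Only the block and the paired tests use the pools, 2 per treatment. Same-numbered libraries come from the same pool. Deviations of replicates from their group mean correlated between the regions at 0.07 in Sham and -0.001 in FT over 106158 windows. The limma script was tested on simulated data and recovered 99% of shifted elements for rank and 100% for width, at shifts of several times the noise.

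The members, loci and lists were chosen with earlier results of these data known. Named were, in each direction, the 8 loci with the most separating windows (ties by rank), the 3 bins of 1 Mb with the most, and the 4 called elements with the largest difference in rank and in width. Alternatives tried were full lists, 10000 peaks, equal covered length, peaks with −log10 p of at least 10, ranking by tag count, other window rules, leaving out each library and the pool as a block. Python 3.11.15 was used for all other steps.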

Additional observations from a re-analysis of the deposited data

Results flagged for a closer look

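At 6 of 56 sets of 4 libraries, 1 value stood far from the other 3 by Dixon's test, and chance alone marks about 1 set in 20. All 6 concern the shares of separating windows occupied in other regions, and no value of the 8 CGC and InsularCortex libraries was among them. One LS library occupied 33.7% of the CGC windows, beside 58.1% to 61.0% in the other 3. One LH (lateral hypothalamus) library occupied 33.7% of the CGC windows, beside 51.6% to 52.8%, and 5.02% of the InsularCortex windows, beside 14.0% to 15.4%. One VTA library occupied 44.3% of the CGC windows, beside 50.4% to 51.2%. One venDG library occupied 31.7% of the CGC windows, beside 53.3% to 54.5%. One PAG (periaqueductal grey) library occupied 7.23% of the InsularCortex windows, beside 12.2% to 13.2%. The part of list length in these values was not tested.

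The width of 4 shared elements differed between the regions by an amount that depended on the treatment (limma interaction, adjusted over 27514 elements). At chr6:133622768-133624771 CGC peaks covered 700 and 700 bp in Sham and 1958 and 1900 bp in FT, and InsularCortex peaks 1800 to 2000 bp in all 4 libraries. The log2 ratio of CGC to InsularCortex was higher in FT by 1.46 (adjusted p = 0.029). At chr12:53669206-53671205 CGC had 600 and 600 bp in Sham and 1300 and 1324 bp in FT beside 1800 to 2000 bp in InsularCortex, an interaction of 1.20 (limma adjusted p = 0.032).

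In the other 2 the direction turned with the treatment. At chr16:9837731-9839287 CGC peaks covered 900 and 900 bp in Sham and 1500 and 1488 bp in FT, and InsularCortex peaks 1400 and 1450 bp in Sham and 1100 and 1100 bp in FT, an interaction of 1.10 (limma adjusted p = 0.029). The largest was at chr17:18264802-18267209, with 1100 and 1000 bp in Sham CGC, 2308 and 2300 bp in FT CGC, 2100 and 2400 bp in Sham InsularCortex, and 1100 and 1000 bp in FT InsularCortex, an interaction of 2.23 (limma adjusted p = 0.029). In both, the 2 libraries of each region and treatment lay close together and the Sham and FT values did not overlap. The choice of elements by this interaction favours such values, so they are no separate support. The interaction took libraries of the same pool as independent, with 2 pools per treatment.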

How the results depend on the processing

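Every count of separating windows depended on how the lists were cut. For CGC windows (246) the count was 119 on full lists, 121 with 10000 peaks, 401 at equal covered length, 505 with any overlap, 1 in 5 kb windows, and 329 to 596 without 1 library. Without both Sham CGC libraries, an alternative chosen after seeing the data, it was 1673. For InsularCortex windows (996) it was 261 with 10000 peaks, 660 at equal covered length, 560 with −log10 p of at least 10, 34 in 5 kb windows, 509 by peak centres, 1163 to 1779 without 1 library, and 1530 without both Sham CGC libraries. InsularCortex windows outnumbered CGC windows under each alternative in which all 8 libraries entered. The replicate block, which asks that each of the 4 pairs differs the same way, leaves 246 and 996 by construction.

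The Jaccard excess (0.0373) ranged from 0.0236 to 0.0585 without 1 library, was 0.0391 without both Sham CGC libraries (exact p = 0.0667) and 0.0318 with the replicate block (exact p = 0.125). Without any 1 InsularCortex library its exact p was 0.0857. Log2 ratios of the list values without 1 library were -0.22 to -0.11 for peak number, -0.28 to -0.11 for covered length, -0.19 to -0.07 for median width and -0.157 to -0.0536 for occupied windows. The last passed the threshold without FT CGC replicate 1 (-0.16, exact permutation p = 0.0286). The mean difference of 28.0 percentage points in other regions was 54.5 with 10000 peaks, 15.1 without both Sham CGC libraries, 28.8 without the Sham HB library and 20.6 to 30.7 without 1 library.

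Rank calls (18 in CGC, 44 in InsularCortex) fell to 3 and 16 on full lists, to 0 and 0 with 10000 peaks, without both Sham CGC libraries and with the replicate block, and to 0 to 2 and 0 to 11 without 1 library, and were 1661 and 1892 by non-overlap. Width calls (0 and 1) were 0 and 2 on full lists, 0 and 0 with 10000 peaks, without both Sham CGC libraries and with the replicate block, 0 and 0 to 6 without 1 library, and 125 and 1180 by non-overlap. The cause of these changes was not tested, apart from the fewer libraries or elements that some alternatives hold.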

Other observations

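The separating windows that rank highest were looked up after their values were seen. Windows where the other region listed no peak of any size on full lists numbered 26 of 246 for CGC (10.6%) and 228 of 996 for InsularCortex (22.9%). Among the CGC ones the best was chr18:64575001-64576000, whose peak held rank 14913 and 11867 in the Sham CGC lists and 11378 and 17214 in the FT CGC lists. It was occupied in 8 of the 86 other libraries, from ILC, arc, dorDG and venDG. The third, chr2:268271001-268272000, was occupied in 4 other libraries, all from ILC or PLC, the medial prefrontal regions beside CGC. Among the InsularCortex ones, chr8:130845001-130846000 held rank 18000 and 19436 in Sham and 20221 and 14928 in FT, and was occupied in 14 other libraries of 8 regions.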
